A study of Mus musculus with 8 samples.

Results

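The genes described here are those that were at least 2-fold lower in endothelial cells given IL1B and TNFA than in cells without them, whether or not the cells carried the deletion studied. They were chosen from their own measured response. The count of each gene was scaled to a library total of 1000000 counts (CPM), and each cytokine library was set against the untreated library of the same genotype and replicate number, which gave 4 pairs. A gene was taken when it had at least 5 CPM in each of the 4 untreated libraries and when (CPM with cytokines + 0.5)/(CPM without + 0.5) was at most 0.5 in all 4 pairs. Collagen chain and solute carrier symbols were left out, which removed 7 genes. The rule found 181 of the 52636 genes in the table, which is 1.84% of the 9836 genes with at least 5 CPM in every untreated library. At the same level minimum, 97 genes were at least doubled in all 4 pairs.

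The cells were endothelial cells of mouse liver kept in culture, labelled WT or dKO, and the labels do not expand dKO. The study's design text describes deletion of Erg, of Fli1 or of both, which encode ETS transcription factors, with 4-OHT, an active tamoxifen metabolite given for 48 hours, and a further 7 days of culture. The 4 groups of 2 libraries were WT without cytokines, WT lysed 16 hours after IL1B and TNFA, dKO without cytokines and dKO lysed 16 hours after IL1B and TNFA, and all of them fall under the same 4-OHT protocol. Live cells negative for CD45 and positive for CD31 and VE-cadherin were sorted and their polyadenylated RNA was sequenced. The promoter that drives the recombinase is not given in the sources used here, and the labels do not say which animals the replicates came from, so the p-values below measure only the spread between these libraries.

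IL1B and TNFA are inflammatory cytokines that activate NF-kB and AP-1 in endothelium and induce adhesion molecules and chemokines. The other side of the response is a loss of transcripts that resting vessels make. Those taken up below include growth factors, matrix proteins, regulators of coagulation and components of the BMP, Hippo and Wnt pathways. These groups were chosen with earlier results of these data known. ERG and FLI1 are ETS factors that bind a GGAA core and maintain endothelial gene expression.

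Library totals ran from 23009062 to 26944030 counts. Erg stood at 222 and 205 CPM in the untreated WT libraries and at 39 and 95.3 CPM in the untreated dKO libraries, and Fli1 at 183 and 195 against 21.3 and 65.2 CPM. Library 2 of dKO kept more of both transcripts than library 1, also with cytokines, where Erg was at 31 and 84.8 CPM and Fli1 at 11 and 33.2 CPM. It also held both Xist (233 CPM untreated) and the Y-linked Ddx3y (94.5 CPM untreated), whereas WT library 2 held Xist at 697 CPM and Ddx3y at 0.0371 CPM, and libraries 1 of both genotypes had Xist at no more than 1.18 CPM and Ddx3y at 105 to 141 CPM. Libraries 1 and 2 of a genotype thus differed in sex-linked transcripts and were not repeats of 1 RNA source, and the part of this difference in the results was not tested. The 10 endothelial markers Cdh5, Pecam1, Kdr, Tek, Tie1, Egfl7, Emcn, Eng, Cldn5 and Esam summed to 10302 and 10101 CPM in untreated WT, 5267 and 5367 CPM in WT with cytokines, 1533 and 3387 CPM in untreated dKO and 1396 and 2310 CPM in dKO with cytokines. In WT all 10 were lower with cytokines, but unequally. Eng went from 3808 and 3538 to 991 and 923 CPM, and Pecam1 from 1824 and 1718 to 758 and 815 CPM. Cdh5 went only from 1400 and 1439 to 1372 and 1364 CPM. In dKO library 1, Cdh5, Pecam1 and Esam were higher with cytokines and the others lower. All 10 were lower with cytokines in dKO library 2. Of 12 stellate cell, pericyte and fibroblast markers, Hhip was at 0 in all 8 libraries and Lrat at no more than 0.0406 CPM, while Pdgfra was between 2.35 and 30.7 CPM in WT and between 579.8 and 1048 CPM in dKO libraries. The 12 summed to between 9727 and 10426 CPM in WT and between 13342 and 15477 CPM in dKO, most of it Dcn. The 12 markers of liver sinusoidal endothelium summed to 3105 and 3161 CPM in untreated WT and 1931 and 1970 CPM in WT with cytokines, most of it Stab1. In dKO they summed to 86.3 and 814 CPM untreated and 54.4 and 544 CPM with cytokines. Leukocyte markers summed to at most 8.76 CPM and hepatocyte markers to at most 5.79 CPM. Cholangiocyte and mesothelial markers summed to at most 3.86 CPM in WT and to between 42.8 and 248 CPM in dKO, of which Spp1 gave up to 229.6 CPM. The part of these markers in the results below was not tested, and in bulk RNA fewer cells of a type and less RNA per cell cannot be told apart.

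The 181 repressed genes together held 33248 and 34405 CPM in the untreated WT libraries and 8640 and 9466 CPM after cytokines. In dKO cells the sum went from 36822 to 11913 CPM in pair 1 and from 30837 to 11137 CPM in pair 2. The median ratio was 0.256 and 0.281 in the WT pairs and 0.289 and 0.365 in the dKO pairs. Over all 9836 genes at the same level minimum, the medians were 0.849, 0.902, 0.925 and 0.919. These values follow from the rule and were not tested. The dKO pair 2 had the largest of the 4 ratios in 94 genes and the lowest in 3, so among the repressed genes this pair most often lay nearest the limit. Its cells kept the most Erg and Fli1 among the dKO libraries, and a link between these was not tested. At the edge of the rule, Tsc22d1 and Syne3, inside it, had largest ratios of 0.4996 and 0.498. H19, Dixdc1 and Acaa2 were left out by ratios of 0.502, 0.502 and 0.503.

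**Figure D1:**
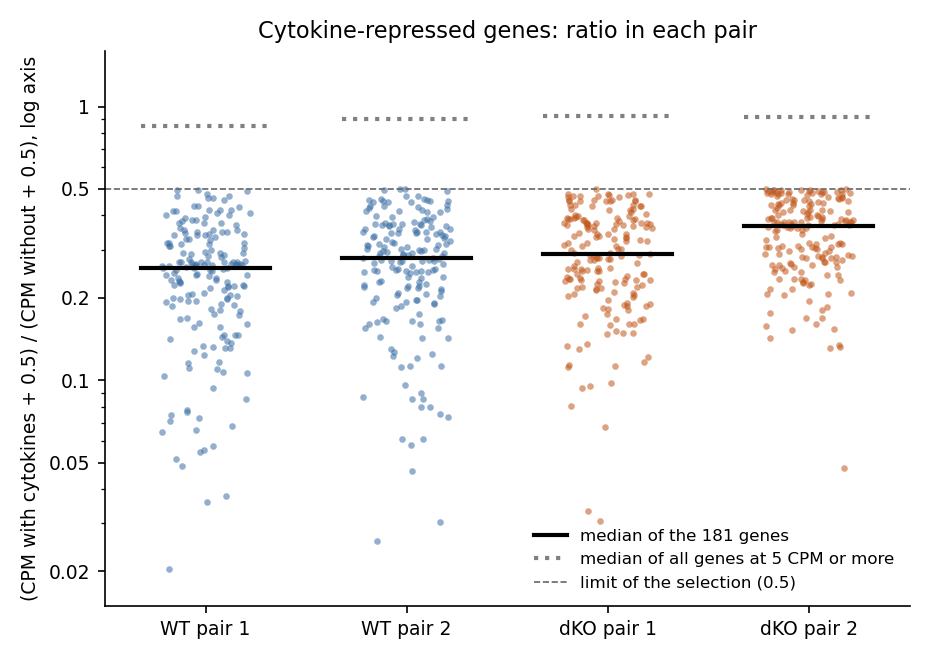
Ratio of each repressed gene's level with cytokines to its level without, on a log axis, in each of the 4 pairs, 1 point a gene. Solid lines are the medians of the repressed genes and dotted lines those of all genes with at least 5 CPM in every untreated library. Every repressed gene lies at or below a ratio of 0.5 by the rule, and the medians were 0.256, 0.281, 0.289 and 0.365 from WT pair 1 to dKO pair 2.

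At least a 4-fold lower level in all 4 pairs was seen in 21 genes. They were Gm13091, Aldh1a1, Prss23, Rasl11a, Ccn2, Bmx, Svep1, Colec11, Mettl7a1, Akr1c14, Peg10, Krt18, Pkhd1l1, Adam33, P3h2, Nrg1, Bmp4, Gas6, Gpnmb, Id1 and Hlf. In both WT pairs 15 genes were at least 10-fold lower, and in both dKO pairs 1 gene was. That gene was Gm13091, a transcript of the antisense class (GRCm38 chromosome 4, 150566869 to 150568544, minus strand), singled out here after its values were seen. Gm13091 was at 195 and 138 CPM in untreated WT cells, 3.48 and 3.08 CPM after cytokines, 65.1 and 56.3 CPM in untreated dKO cells and 1.5 and 2.2 CPM after cytokines. Among members with at least 20 CPM in every untreated library, the genes with a settled symbol and the lowest mean ratios were Prss23, which encodes a secreted serine protease, 13-fold lower, and Rasl11a, which encodes a small GTPase of the Ras family, 11.9-fold lower (geometric means of the 4 pairs). The repressed genes were not restricted to rare transcripts, as their median untreated level was 50.7 CPM against 45.4 CPM for all 9836 genes.

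The comparison of dKO with WT cells was tested. It was not part of the rule, apart from the minimum of 5 CPM in every untreated library. It uses the same libraries, and the ratio limit ties each treated library to its untreated one. The 9836 genes share the minimum, and the full set of 15698 genes tested does not. Without cytokines, 40 of the 181 genes were higher in dKO, 30 were lower and 111 did not pass (edgeR quasi-likelihood test, Benjamini-Hochberg adjusted p under 0.05 over 15698 genes). Of all 9836 genes at the level minimum, 12.2% were higher and 12.7% were lower, and of all 15698 genes tested 13.4% and 9.66%. The median log2 fold change of the repressed genes was 0.02, equal to that of all tested genes. With cytokines, 58 were higher in dKO, 24 lower and 99 did not pass, against 19.1% higher and 20.1% lower among the 9836 genes and 18.6% and 15.4% among all tested. The median was 0.34 against 0.01 for all tested genes. By this test 33 genes (18.2%) were higher in dKO in both conditions and 18 (9.94%) lower in both, against 9.66% and 9.05% of the 9836 genes and 10.5% and 6.63% of all tested. With no overlap between the genotypes in either condition, dKO was below WT before cytokines and above it after in 5 repressed genes and the other way round in 2, as in 3.23% and 1.06% of the 9836 genes, so these 7 of 181 are near the share of all genes.

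The 2 libraries in a group limit these counts. In the fits below with libraries left out, the calls over all genes tested fell or rose in the same direction. The changes are therefore not particular to the repressed genes. Leaving out 1 untreated WT library or untreated dKO library 1 took the counts without cytokines to between 11 and 18 higher and between 8 and 15 lower. With cytokines, they came to between 24 and 36 higher and between 9 and 11 lower without 1 treated WT library or treated dKO library 1, and to 15 lower without 1 untreated WT library. Without both dKO replicate 2 libraries, a choice made after seeing the data, 53 were higher and 46 lower without cytokines, and 61 higher and 47 lower with them. Scaling by column totals in place of TMM (a scaling that trims extreme genes) moved the median of all tested genes to -0.13 without cytokines. It turned the split of all calls from 2101 higher and 1516 lower to 1714 higher and 2326 lower, while the repressed genes stood at 35 higher and 33 lower. Of the calls given below, those of Adamtsl3, Clca3a1, Crim1, Emb, Fgf2, Gpm6a, Lats2, Nrbp2, Nrg1, Rasl11a, Rnase4, Sgpp1 and Xdh in both conditions held with any 1 library left out. The same was true of Fzd6 without cytokines and of Bmx, Colec11, Filip1l, Klf15, Podn, Svep1, Timp3 and Wnk4 with them. For other calls the libraries they rest on are named beside them.

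**Figure D2:**
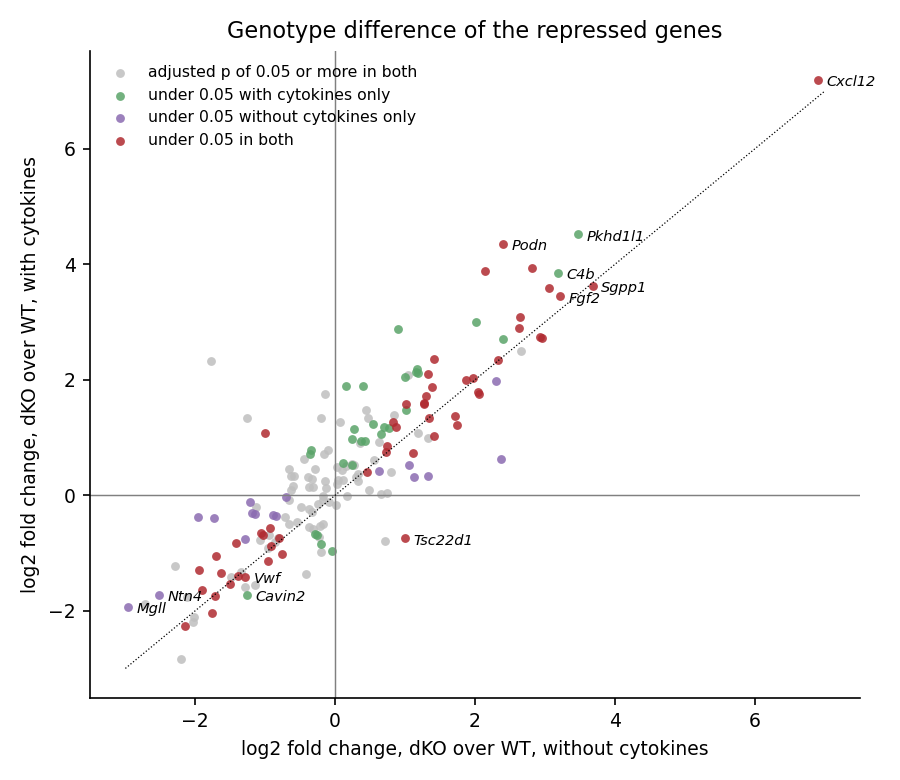
Log2 fold change of dKO over WT for each of the 181 repressed genes, without cytokines on the x axis and with cytokines on the y axis, coloured by where the edgeR adjusted p was under 0.05. The dotted line marks an equal difference in both conditions. Cxcl12 lies highest, at 6.91 and 7.19, and Tsc22d1 lies above 0 without cytokines and below 0 with them.

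Secreted ligands and guidance cues made up 10 of the repressed genes: Angpt2, Cxcl12, Fgf2, Gas6, Nrg1, Ntf3, Ntn4, Pdgfd, Sema3e and Slit2. Without cytokines 2 of them were higher and 3 lower in dKO, and with cytokines 3 were higher and 2 lower. Such counts, here and for the groups below, stand beside 13.4% higher and 9.66% lower of all 15698 genes tested without cytokines. With cytokines these shares were 18.6% and 15.4%. Of the 9836 genes that share the level minimum, 12.2% were higher and 12.7% lower without cytokines, and 19.1% and 20.1% with them. No group was tested as a set. Nrg1 encodes neuregulin-1, a ligand of ErbB receptors (GRCm38 chromosome 8, 31814551 to 32884029, minus strand). It was at 207 and 215 CPM in untreated WT cells and 22.4 and 33 CPM after cytokines, a level 7.64-fold lower (geometric mean of the 2 pairs, 0.5 CPM added; paired values are given for library 1 and then library 2 throughout). In dKO cells it started from 53.8 and 62.7 CPM and came to 12.1 and 13.2 CPM. The groups did not overlap in either condition, and the log2 fold change of dKO over WT was -1.71 ± 0.17 (SE) without cytokines (edgeR adjusted p = 0.0027) and -1.05 ± 0.17 with them (edgeR adjusted p = 0.00684). Ntn4, which encodes the laminin-related cue netrin-4, stood at 615 and 639.8 CPM in untreated WT, 46.6 and 82.6 CPM after cytokines, 40.9 and 161 CPM in untreated dKO and 11.8 and 25.4 CPM after cytokines. Every dKO library was below the WT libraries of the same condition. Its log2 fold change was -2.51 ± 0.68 without cytokines (edgeR adjusted p = 0.0475), a call that ended without untreated WT library 1 or 2, treated WT library 1 or 2, untreated dKO library 1 or treated dKO library 1 or 2 (edgeR adjusted p from 0.0611 to 0.147). Sema3e, the ligand of plexin D1, was at 60.3 and 91.9 CPM in untreated WT, 11.8 and 23.6 CPM after cytokines, 19.1 and 21.3 CPM in untreated dKO and 3.2 and 4.95 CPM after cytokines. The genotypes did not overlap in either condition, and the log2 fold change was -1.77 ± 0.37 (edgeR adjusted p = 0.0229). That call ended without untreated WT library 1 or 2 or untreated dKO library 1 or 2 (edgeR adjusted p from 0.0605 to 0.118).

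The chemokine Cxcl12, ligand of CXCR4, was the repressed gene with the largest genotype difference. It was at 8.6 and 44.2 CPM in untreated WT cells and 3.78 and 5.93 CPM after cytokines, against 4057 and 1639 CPM in untreated dKO cells and 950.3 and 379.6 CPM after cytokines. So the cytokine-treated dKO cells still held far more of it than any WT library. The log2 fold change of dKO over WT was 6.91 ± 1.14 without cytokines (edgeR adjusted p = 0.0132), a call that ended without untreated WT library 1 (edgeR adjusted p = 0.0575). With cytokines it was 7.19 ± 1.17 (edgeR adjusted p = 0.00862), and this call ended without treated WT library 1 or 2 (edgeR adjusted p from 0.0592 to 0.0744). Fgf2, an angiogenic fibroblast growth factor, went with cytokines from 11 and 14.5 to 3.27 and 4.85 CPM in WT and from 125 and 87.6 to 47.9 and 35.8 CPM in dKO. Here too the lowest dKO library was above all WT libraries, with a log2 fold change of 3.22 ± 0.32 without cytokines (edgeR adjusted p = 0.00341) and 3.45 ± 0.34 with them (edgeR adjusted p = 0.00232). Gas6, the ligand of the receptor tyrosine kinases Tyro3, Axl and Mertk, stood at 99.3 and 106 CPM in WT and 913 and 235 CPM in dKO without cytokines and at 12.7 and 23.7 CPM in WT and 135 and 57.8 CPM in dKO with them. Both dKO libraries were above both WT libraries in each condition but stood far apart from each other, and Gas6 passed in neither condition (edgeR adjusted p = 0.0574 and 0.0535).

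Angpt2, the Tie2 ligand that endothelial cells store and release, was at 507 and 712 CPM in untreated WT and 127 and 218 CPM after cytokines. The dKO libraries held 23.9 and 255 CPM untreated and 8.4 and 68.6 CPM after cytokines, so library 1 and library 2 lay far apart in both conditions. The genotype difference did not pass (edgeR adjusted p = 0.279 without and 0.235 with cytokines). Slit2, the ligand of Robo receptors, had 61.2 and 66.9 CPM in WT cells before cytokines and 23.7 and 25.3 CPM after, and 15.3 and 59.4 CPM in dKO cells before and 6.65 and 26.9 CPM after. Only dKO library 1 stood below WT by more than the spread within WT. Of the 40 tested genes in a list of growth factors and receptors, 5 were repressed in all pairs, and 15 were higher and 1 lower in untreated dKO. In a list of ephrins, semaphorins, slits and netrins, 3 of 40 tested genes were repressed in all pairs, with 11 higher and 5 lower in untreated dKO. Over all genes tested, 13.4% were higher and 9.66% lower in untreated dKO.

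**Figure D3:**
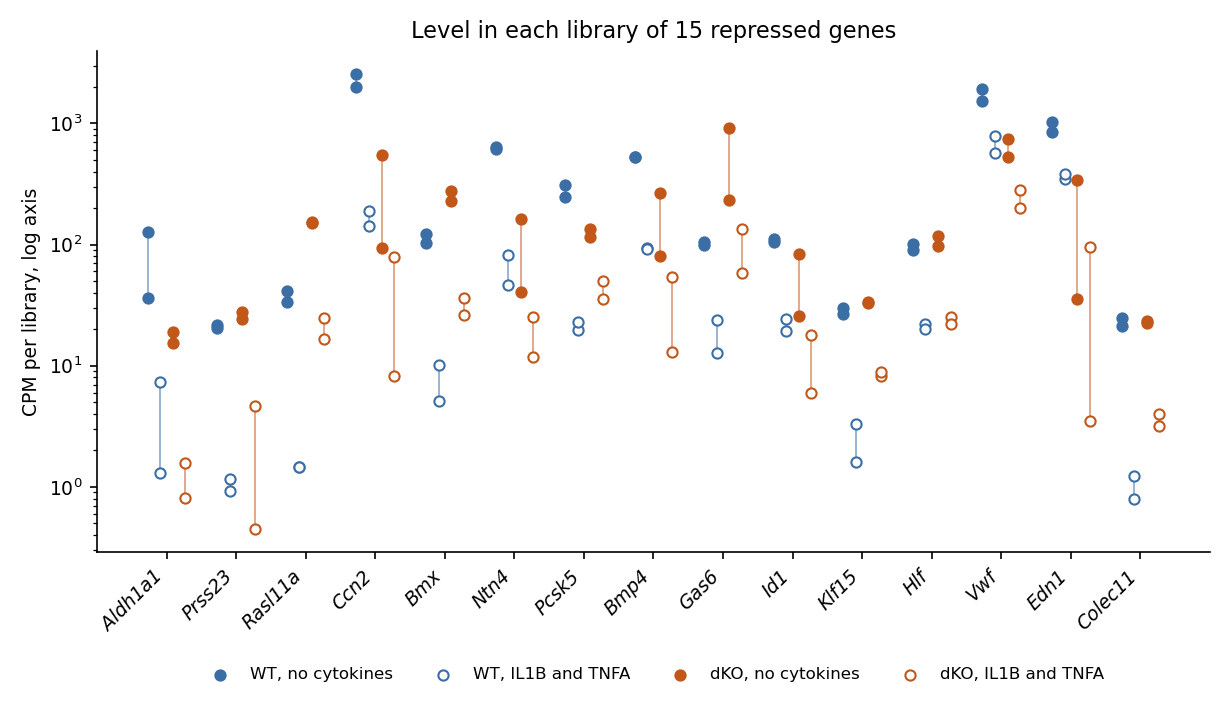
CPM on a log axis of 15 repressed genes in each of the 8 libraries, with filled points for untreated and open points for treated libraries and a line joining the 2 libraries of a group. Levels are to be compared within a gene, since CPM is not corrected for transcript length. In Bmp4, Ntn4 and Id1 the treated points lie below the untreated ones in each genotype, and the 2 dKO libraries lie farther apart than the 2 WT libraries of the same condition.

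Of the BMP and TGF-beta pathway, the ligand Bmp4, the receptor Tgfbr2, the latent TGF-beta binding protein Ltbp1, the SMAD target Id1 and the TGF-beta-stimulated gene Tsc22d1 were repressed. Bmp4 was at 527 and 531 CPM in untreated WT cells and 93.8 and 92.3 CPM after cytokines. In dKO it went from 80.4 and 265 CPM to 13 and 53.9 CPM, and the folds of 5.66 in WT and 5.42 in dKO were close while the starting levels were not. Every dKO library was below the WT libraries of its condition, yet the spread between the dKO libraries left the difference short of the threshold (log2 fold change -1.49 ± 0.73, edgeR adjusted p = 0.186 without cytokines). Id1, an inhibitor of basic helix-loop-helix factors that BMP receptors induce, was at 105 and 111 CPM in untreated WT, 19.3 and 24.4 CPM after cytokines, 25.9 and 83.2 CPM in untreated dKO and 5.96 and 18.1 CPM after cytokines. For Bmp4 as for Id1, dKO library 1 was the lowest of the libraries in each condition. Tgfbr2, the type II TGF-beta receptor, went with cytokines from 695 and 676 to 257 and 267 CPM in WT and from 434 and 618 to 196 and 254 CPM in dKO, and did not pass between genotypes (edgeR adjusted p = 0.316 and 0.504).

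Tsc22d1 had the opposite genotype order in the 2 conditions. It was at 152 and 184 CPM in untreated WT and 347 and 254 CPM in untreated dKO, and after cytokines at 74.6 and 91.5 CPM in WT and 41.7 and 52.3 CPM in dKO. The dKO libraries were thus above both WT libraries before cytokines and below both after. Without cytokines the log2 fold change was 1.0 ± 0.22 (edgeR adjusted p = 0.0229), which ended without untreated WT library 1 or 2 or untreated dKO library 1 (edgeR adjusted p from 0.078 to 0.132). With cytokines it was -0.75 ± 0.22 (edgeR adjusted p = 0.0395), which ended without untreated WT library 1 or 2, treated WT library 1 or 2 or treated dKO library 1 or 2 (edgeR adjusted p from 0.0579 to 0.169). In a list of 48 BMP and TGF-beta genes, 47 were tested, 5 of them were repressed in all pairs (Bmp4, Ccn2, Id1, Ltbp1 and Tgfbr2, as Tsc22d1 is not in the list), 11 were higher and 6 lower in untreated dKO, and 15 were higher and 7 lower with cytokines.

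The Hippo pathway restrains the coactivators YAP and TAZ through kinases such as LATS2, and YAP and TAZ act with TEAD factors on genes such as Ccn1, Ccn2 and Amotl2. Ccn1, Ccn2, Amotl2, Crim1 and Lats2 were repressed in all pairs, 5 of the 18 genes of a list of the pathway and its targets. Of the 18, 1 was higher and 4 were lower in untreated dKO, and with cytokines 2 were higher and 5 lower. The shares of all genes tested were 13.4% and 9.66% without cytokines and 18.6% and 15.4% with them. Ccn1, Amotl2 and Crim1 are shown with the 250 bases before their start site, because each holds the 6 letters GGAATG that TEAD factors bind, on one strand or the other. The sequences are from RefSeq (GRCm38.p6), 5′ to 3′ on the strand of the gene, and capitals mark the match, which reads CATTCC where it lies on the other strand. Ccn1 is at chr3:145649986-145650235 (minus strand), Amotl2 at chr9:102717554-102717803 (plus strand) and Crim1 at chr17:78199998-78200247 (plus strand).
Ccn1: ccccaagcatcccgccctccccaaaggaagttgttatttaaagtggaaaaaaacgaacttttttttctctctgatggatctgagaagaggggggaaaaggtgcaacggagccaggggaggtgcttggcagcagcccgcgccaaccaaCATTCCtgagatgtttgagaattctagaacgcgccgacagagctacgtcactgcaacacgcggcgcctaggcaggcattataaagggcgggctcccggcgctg
Amotl2: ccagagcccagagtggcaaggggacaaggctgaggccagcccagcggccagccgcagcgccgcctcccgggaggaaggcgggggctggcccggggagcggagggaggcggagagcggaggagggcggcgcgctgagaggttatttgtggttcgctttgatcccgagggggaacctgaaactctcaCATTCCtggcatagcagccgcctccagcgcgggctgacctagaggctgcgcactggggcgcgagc
Crim1: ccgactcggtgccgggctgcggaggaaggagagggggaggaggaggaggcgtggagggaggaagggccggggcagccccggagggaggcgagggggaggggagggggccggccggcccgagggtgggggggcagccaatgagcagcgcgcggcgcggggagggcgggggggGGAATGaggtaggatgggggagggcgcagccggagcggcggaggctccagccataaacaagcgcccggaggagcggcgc

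The match began 103 bases before the start site in Ccn1, 65 before it in Amotl2 and 79 before it in Crim1. In Lats2 it began at base 5 after the start, in 1 of its 2 windows. All 4 repressed list genes with a window in the RefSeq table held these letters, as did 5 of the other 9 list genes with a window. GGAATG is common, however, and stood in 11.7% of the windows of all repressed genes, in 11.8% of windows of the 9836 genes and in 14.7% of all windows. Counted by gene, as for the list, the shares of genes with a window were 15.7%, 13.9% and 16.6%. A match is a description of the letters and does not show binding.

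Ccn2, also known as connective tissue growth factor (GRCm38 chromosome 10, 24595442 to 24598683, plus strand), was at 1997 and 2575 CPM in untreated WT cells and 142 and 189 CPM after cytokines, 13.8-fold lower. In dKO cells it was at 93.2 and 552 CPM untreated and 8.27 and 78.4 CPM after cytokines. All dKO libraries were below the WT libraries of their condition and the 2 dKO libraries were far apart, so that the log2 fold change of -2.71 ± 1.16 without cytokines did not pass (edgeR adjusted p = 0.14). Ccn1, the related matrix protein CYR61, stood at 702 and 829 CPM in WT and 499 and 541 CPM in dKO without cytokines and at 325 and 362 CPM in WT and 66.3 and 191 CPM in dKO with them. It was 2.22-fold lower with cytokines in WT and 4.6-fold lower in dKO, the reverse of the order seen in Ccn2, and it passed between genotypes in neither condition (edgeR adjusted p = 0.505 and 0.0536).

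Crim1, a transmembrane protein that binds BMPs, had 1098 and 1269.7 CPM in WT cells before cytokines and 458 and 448 CPM after, and 354 and 461 CPM in dKO cells before and 139 and 189.7 CPM after. The genotypes did not overlap in either condition, and the log2 fold change of dKO over WT was -1.40 ± 0.18 without (edgeR adjusted p = 0.0053) and -1.39 ± 0.18 with cytokines (edgeR adjusted p = 0.00368). The kinase gene Lats2, taken up after its values were seen, was at 113 and 118 CPM in untreated WT, 47 and 53 CPM after cytokines, 55.8 and 63.1 CPM in untreated dKO and 26.2 and 30.4 CPM after cytokines. Its replicates lay close together, and the log2 fold change was -0.81 ± 0.10 (edgeR adjusted p = 0.00468) and -0.75 ± 0.10 (edgeR adjusted p = 0.00392). Amotl2, an angiomotin that binds YAP, went with cytokines from 599 and 622 to 122 and 129 CPM in WT and from 266 and 360.0 to 42.3 and 101 CPM in dKO. Both dKO libraries were below both WT libraries in each condition, but the difference did not pass (edgeR adjusted p = 0.139 and 0.148).

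Wnt signalling runs from secreted Wnt proteins through Frizzled receptors and is damped by secreted and intracellular antagonists. The receptor Fzd6, the secreted antagonist Sfrp1, the intracellular antagonist Nkd1 and the GSK3-binding protein Frat2 were repressed. Fzd6 stood at 429 and 479.7 CPM in WT and 181 and 213 CPM in dKO without cytokines and at 113 and 132 CPM in WT and 67.5 and 80.7 CPM in dKO with them. It was lower in dKO by a log2 fold change of -1.06 ± 0.13 without cytokines (edgeR adjusted p = 0.00459). With cytokines the difference was -0.65 ± 0.13 (edgeR adjusted p = 0.0114), a call that ended without treated WT library 2 or treated dKO library 1 (edgeR adjusted p from 0.0574 to 0.0673). Sfrp1 had 271 and 323 CPM in WT cells before cytokines and 46.5 and 59.6 CPM after, and 632 and 313 CPM in dKO cells before and 176 and 83.4 CPM after. Its untreated groups overlapped, and it did not pass (edgeR adjusted p = 0.249 and 0.0743). Nkd1 was at 23.8 and 10.8 CPM in untreated WT, 3.61 and 2.35 CPM after cytokines, 21.4 and 15.1 CPM in untreated dKO and 4.1 and 4.12 CPM after cytokines, and its genotype difference, which did not pass, changed sign without untreated WT library 2 or untreated dKO library 1 (log2 fold changes of -0.204 and -0.106). In a list of 35 Wnt and R-spondin genes, 31 were tested, 3 were repressed in all pairs, and 9 were higher and 3 lower in untreated dKO.

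Matrix proteins, their processing enzymes and proteases made up 14 repressed genes, of which 6 were higher and 2 lower in untreated dKO and 9 higher and 1 lower with cytokines. Prss23 went with cytokines from 20.5 and 21.6 to 0.923 and 1.16 CPM in WT and from 27.9 and 24.4 to 0.446 and 4.66 CPM in dKO. Its treated dKO libraries lay on either side of the WT ones, so the log2 fold change of 1.34 ± 0.89 with cytokines did not pass (edgeR adjusted p = 0.28) and became -1.09 without treated dKO library 2. Svep1, a large adhesive matrix protein, stood at 27.3 and 14.3 CPM in WT and 49.7 and 49.1 CPM in dKO without cytokines and at 1.05 and 1.31 CPM in WT and 5.35 and 6.19 CPM in dKO with them. It was higher in dKO with cytokines, where the groups were far apart (log2 fold change 2.36 ± 0.32, edgeR adjusted p = 0.00459). Without cytokines the log2 fold change was 1.41 ± 0.28 (edgeR adjusted p = 0.0176), a call that ended without untreated dKO library 1 (edgeR adjusted p = 0.0816).

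Pcsk5, a proprotein convertase, was at 311 and 246 CPM in untreated WT and 134 and 115 CPM in untreated dKO. After cytokines it stood at 19.8 and 23.1 CPM in WT and 50.3 and 35.3 CPM in dKO. WT thus had the higher level before cytokines and the lower level after, since the gene was 12.7-fold lower with cytokines in WT and 2.93-fold lower in dKO. The log2 fold change of dKO over WT was -1.0 ± 0.22 without cytokines (edgeR adjusted p = 0.0243), which ended without untreated WT library 1 or 2 or untreated dKO library 1 or 2 (edgeR adjusted p from 0.0664 to 0.126). With cytokines it was 1.08 ± 0.23 (edgeR adjusted p = 0.0147), which ended without treated WT library 1 or 2 or treated dKO library 1 (edgeR adjusted p from 0.0525 to 0.0907).

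Podn, a small leucine-rich matrix proteoglycan, had 29.7 and 25.2 CPM in WT cells before cytokines and 3.23 and 2.39 CPM after, and 166 and 92.7 CPM in dKO cells before and 63.6 and 44.7 CPM after. The treated dKO libraries were above even the untreated WT libraries. The log2 fold change, dKO over WT, was 4.35 ± 0.41 with cytokines (edgeR adjusted p = 0.00232) and 2.40 ± 0.37 without (edgeR adjusted p = 0.00992), the latter call ending without untreated WT library 1 or 2 (edgeR adjusted p from 0.0699 to 0.0754). Adamtsl3, an ADAMTS-like matrix glycoprotein, was at 7.84 and 7.53 CPM in untreated WT, 1.34 and 1.04 CPM after cytokines, 57.4 and 58.5 CPM in untreated dKO and 10.5 and 17 CPM after cytokines. The untreated replicates lay close together, the treated dKO libraries less so, and the difference was 3.06 ± 0.23 without cytokines (edgeR adjusted p = 0.00131) and 3.59 ± 0.25 with them (edgeR adjusted p = 0.00106). Timp3, a matrix-bound metalloproteinase inhibitor, went with cytokines from 41.3 and 62.6 to 10.5 and 15.1 CPM in WT and from 215 and 255 to 44 and 80.5 CPM in dKO. Timp3 was higher in dKO by 2.35 ± 0.35 with cytokines (edgeR adjusted p = 0.00637) and by 2.32 ± 0.34 without (edgeR adjusted p = 0.00936), the latter ending without untreated WT library 1 (edgeR adjusted p = 0.0635). Its exons share 21.3% of their bases with Syn3 on the other strand, so its counts are uncertain. P3h2, a prolyl 3-hydroxylase of collagen, went the other way, from 212 and 175 to 22.1 and 26.6 CPM in WT and from 32.7 and 58.1 to 6.17 and 12.8 CPM in dKO. Its log2 fold change was -1.95 ± 0.37 without cytokines (edgeR adjusted p = 0.0172), which ended without untreated WT library 1 or 2 or untreated dKO library 1 (edgeR adjusted p from 0.0725 to 0.0887), and 28.4% of its exon bases are shared with Gm4524 on the other strand. In lists that include genes outside the rule, 22 of 37 tested proteases and inhibitors were higher and 1 lower in untreated dKO, and 20 of 50 tested matrix genes were higher and 2 lower. Over all genes tested, 13.4% were higher and 9.66% lower.

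Regulators of haemostasis and vascular tone were Vwf, Plau, Ptgs1, Edn1, Npr3 and Prkg1. Vwf, the von Willebrand factor that endothelial cells store for platelet adhesion, stood at 1922 and 1519 CPM in WT and 525 and 749 CPM in dKO without cytokines and at 787 and 568 CPM in WT and 202 and 283 CPM in dKO with them. The groups did not overlap, and it was lower in dKO by a log2 fold change of -1.29 ± 0.25 without cytokines (edgeR adjusted p = 0.0171), a call that ended without untreated WT library 1 or 2 or untreated dKO library 1 (edgeR adjusted p from 0.0646 to 0.0964). With cytokines it was -1.42 ± 0.25 (edgeR adjusted p = 0.00907), a call that ended without treated WT library 1 or treated dKO library 1 (edgeR adjusted p from 0.0517 to 0.0568). Plau, which encodes urokinase, had 418 and 346 CPM in WT cells before cytokines and 57 and 89.6 CPM after, and 39.4 and 103 CPM in dKO cells before and 10.9 and 49.6 CPM after. Every dKO library lay below the WT libraries of its condition without passing (edgeR adjusted p = 0.0747 and 0.234). Edn1, the vasoconstrictor endothelin-1, looked at after its values were seen, was at 850.1 and 1017 CPM in untreated WT, 346 and 384 CPM after cytokines, 35.3 and 341 CPM in untreated dKO and 3.49 and 95.3 CPM after cytokines. The 2 dKO libraries of each condition were so far apart that the difference from WT did not pass (edgeR adjusted p = 0.317 and 0.193). Ptgs1, the constitutive cyclooxygenase, went with cytokines from 50.4 and 39.5 to 9.31 and 7.09 CPM in WT and from 34.1 and 29.1 to 15.3 and 11.4 CPM in dKO. The log2 fold change, dKO over WT, with cytokines was 0.78 ± 0.24 (edgeR adjusted p = 0.0477), which ended without untreated WT library 1 or 2, treated WT library 1 or 2, untreated dKO library 1 or 2 or treated dKO library 1 (edgeR adjusted p from 0.0514 to 0.228).

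Kinases and other intracellular signalling proteins numbered 12, with 5 higher and 2 lower in untreated dKO and 6 higher and 1 lower with cytokines. The shares of all genes tested were 13.4% and 9.66% without cytokines and 18.6% and 15.4% with them. Those of the 9836 genes at the level minimum were 12.2% and 12.7% without cytokines and 19.1% and 20.1% with them. Rasl11a (GRCm38 chromosome 5, 146845071 to 146847726, plus strand) stood at 33.9 and 41.7 CPM in WT and 152 and 149.6 CPM in dKO without cytokines and at 1.47 and 1.46 CPM in WT and 16.7 and 24.9 CPM in dKO with them. The level was 19.4-fold lower in WT and 7.25-fold lower in dKO, and the log2 fold change of dKO over WT was 2.15 ± 0.19 without (edgeR adjusted p = 0.0022) and 3.89 ± 0.22 with cytokines (edgeR adjusted p = 0.000769). Bmx, a Tec family tyrosine kinase of arterial endothelium, had 103 and 122 CPM in WT cells before cytokines and 5.12 and 10.1 CPM after, and 276 and 229.7 CPM in dKO cells before and 26.4 and 35.9 CPM after. It was higher in dKO with cytokines (log2 fold change 2.10 ± 0.33, edgeR adjusted p = 0.0071). Without them the difference was 1.33 ± 0.31 (edgeR adjusted p = 0.0305), which ended without untreated WT library 1 or 2 or untreated dKO library 1 (edgeR adjusted p from 0.112 to 0.158). Prex2, an exchange factor for Rac, was lower in dKO, at 173 and 165 CPM in untreated WT, 46.5 and 54.4 CPM after cytokines, 35 and 58.1 CPM in untreated dKO and 7.99 and 20.9 CPM after cytokines. Its log2 fold change of -1.72 ± 0.42 without cytokines (edgeR adjusted p = 0.0346) ended without untreated WT library 1 or 2, treated WT library 1 or 2 or untreated dKO library 1 or 2 (edgeR adjusted p from 0.0524 to 0.167). Wnk4, a kinase that controls ion transporters and was taken up after its values were seen, was at 12.2 and 11.5 CPM in untreated WT, 2.77 and 2.7 CPM after cytokines, 27.4 and 24.2 CPM in untreated dKO and 8.64 and 7.03 CPM after cytokines, with a log2 fold change of 1.6 ± 0.19 with cytokines (edgeR adjusted p = 0.00324).

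Complement components, other plasma proteins and cytokine receptors made up 11 repressed genes, of which 2 were higher in untreated dKO and 6 with cytokines, and none was lower in either. Over all genes tested, 13.4% were higher and 9.66% lower without cytokines, and 18.6% and 15.4% with them. Of the 9836 genes at the level minimum, 12.2% were higher and 12.7% lower without cytokines, and 19.1% and 20.1% with them. Colec11, a collectin that starts the lectin pathway, stood at 24.7 and 21.3 CPM in WT and 22.5 and 23.5 CPM in dKO without cytokines and at 0.797 and 1.23 CPM in WT and 4.02 and 3.16 CPM in dKO with them. The untreated difference did not pass (edgeR adjusted p = 0.617), and treated dKO cells held more than treated WT cells (log2 fold change 1.89 ± 0.25, edgeR adjusted p = 0.00388). C4b, a complement component with near-identical copies in the mouse genome, had 8.55 and 22.9 CPM in WT cells before cytokines and 1.68 and 5.86 CPM after, and 183 and 73.1 CPM in dKO cells before and 79.3 and 22.4 CPM after. Its counts are uncertain for that reason, and its log2 fold change with cytokines of 3.85 ± 1.04 (edgeR adjusted p = 0.0354) ended without untreated WT library 1 or 2, treated WT library 1 or 2 or treated dKO library 1 (edgeR adjusted p from 0.0503 to 0.165). Rnase4, a secreted ribonuclease that shares exon bases with its neighbour Ang, another repressed gene, was chosen after its values were seen. It was at 325 and 290.5 CPM in untreated WT, 68.8 and 73.7 CPM after cytokines, 684 and 757 CPM in untreated dKO and 216 and 280.0 CPM after cytokines, with log2 fold changes of 1.38 ± 0.13 (edgeR adjusted p = 0.00229) and 1.87 ± 0.13 (edgeR adjusted p = 0.001). The receptors Lepr, for leptin, and Il6ra, for interleukin 6, were repressed and passed between genotypes in neither condition.

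Cytoskeletal, junctional and nuclear envelope proteins were 23 genes, of which 4 were higher and 3 lower in untreated dKO, and 5 higher and 5 lower with cytokines. Cavin2, a coat protein of caveolae, went with cytokines from 473 and 622 to 122 and 177 CPM in WT and from 186 and 229 to 27.9 and 58.6 CPM in dKO. It was lower in dKO with cytokines (log2 fold change -1.72 ± 0.36, edgeR adjusted p = 0.016), a call that ended without treated WT library 2 (edgeR adjusted p = 0.0744). Fhl1, a LIM domain protein, stood at 107 and 172 CPM in WT and 723 and 279 CPM in dKO without cytokines and at 11.9 and 19 CPM in WT and 154 and 77.8 CPM in dKO with them. The log2 fold change, dKO over WT, with cytokines of 3.0 ± 0.65 (edgeR adjusted p = 0.0185) ended without treated WT library 1 or 2 or treated dKO library 1 (edgeR adjusted p from 0.0776 to 0.113). Myl9, a regulatory myosin light chain, had 19.4 and 20.1 CPM in WT cells before cytokines and 6.96 and 8.78 CPM after, and 57.8 and 61.8 CPM in dKO cells before and 11.5 and 23.6 CPM after. It was higher in dKO without cytokines (log2 fold change 1.75 ± 0.30, edgeR adjusted p = 0.012), which ended without untreated WT library 1 or 2 or untreated dKO library 1 (edgeR adjusted p from 0.0534 to 0.0878). Filip1l, which encodes a filamin-interacting protein and was chosen after its values were seen, was at 324 and 349.7 CPM in untreated WT, 87.5 and 104 CPM after cytokines, 301 and 290.1 CPM in untreated dKO and 40.3 and 53.3 CPM after cytokines. The untreated groups were close and the treated groups were apart, with a log2 fold change of -0.96 ± 0.15 with cytokines (edgeR adjusted p = 0.00586). Tns2, which encodes the focal adhesion protein tensin 2, went with cytokines from 229 and 198 to 70.5 and 72.7 CPM in WT and from 196 and 192 to 47.6 and 73.7 CPM in dKO, and the genotypes overlapped after cytokines.

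Transcription factors and clock genes were Klf15, Hlf, Plagl1, Per2, Pknox2, Lbh and Tbx5. Klf15, a Krüppel-like factor that glucocorticoids induce, stood at 26.5 and 29.7 CPM in WT and 33.6 and 33.1 CPM in dKO without cytokines and at 1.59 and 3.27 CPM in WT and 8.15 and 8.94 CPM in dKO with them. The untreated difference did not pass (edgeR adjusted p = 0.307), and treated dKO cells held more (log2 fold change 1.88 ± 0.29, edgeR adjusted p = 0.00621). The clock-output factor Hlf and the clock gene Per2, chosen after their values were seen, were both repressed. Hlf had 101 and 89.6 CPM in WT cells before cytokines and 22.1 and 20.3 CPM after, and 117 and 96.6 CPM in dKO cells before and 25.2 and 22.3 CPM after. Per2 was at 25.6 and 19 CPM in untreated WT, 4.87 and 4.89 CPM after cytokines, 21.9 and 13.5 CPM in untreated dKO and 10.3 and 4.86 CPM after cytokines. Hlf was lower by 4.4-fold in WT and 4.42-fold in dKO, and Per2 was 4.19-fold lower in WT and 2.33-fold lower in dKO. None of the 18 tested ETS factors, 37 endothelial transcription factors, 18 Notch genes, 18 integrins, 35 G protein-coupled receptors or 52 cell cycle genes in the lists was a repressed gene by the rule, which took 1.84% of the 9836 genes, so that 0 in lists of this size is near the share of all genes. The G protein-coupled receptors Gpr39 and Mrgpre were repressed genes but are not in that list.

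Metabolic enzymes were 27 of the repressed genes, with 4 higher and 3 lower in untreated dKO and 7 higher and 2 lower with cytokines. The shares of all genes tested were 13.4% and 9.66% without cytokines and 18.6% and 15.4% with them. Those of the 9836 genes at the level minimum were 12.2% and 12.7% without cytokines and 19.1% and 20.1% with them. Enzymes on either side of retinoic acid were among the 27, and both were looked at after their values were seen. Aldh1a1, which makes retinoic acid, went with cytokines from 36.4 and 128 to 1.3 and 7.28 CPM in WT and from 18.9 and 15.4 to 0.811 and 1.58 CPM in dKO. Cyp26b1, which clears retinoic acid, stood at 48.4 and 72.1 CPM in WT and 8.52 and 23.8 CPM in dKO without cytokines and at 1.26 and 1.7 CPM in WT and 3.04 and 11.2 CPM in dKO with them. Replicates stood far apart, for Aldh1a1 in WT and for Cyp26b1 in dKO, and neither gene passed between genotypes (edgeR adjusted p = 0.125 and 0.106 without cytokines). Sgpp1, which dephosphorylates sphingosine 1-phosphate, had 92.5 and 75.4 CPM in WT cells before cytokines and 24.2 and 27.7 CPM after, and 1139.7 and 791 CPM in dKO cells before and 376 and 227 CPM after. The treated dKO libraries were above the untreated WT libraries, with log2 fold changes of 3.69 ± 0.34 (edgeR adjusted p = 0.00269) and 3.63 ± 0.34 (edgeR adjusted p = 0.0022). Xdh, xanthine dehydrogenase of purine breakdown, was at 98 and 115 CPM in untreated WT, 48.5 and 42.8 CPM after cytokines, 910.0 and 581 CPM in untreated dKO and 338 and 229.6 CPM after cytokines. It was higher in dKO by 2.96 ± 0.33 without (edgeR adjusted p = 0.00423) and 2.72 ± 0.32 with cytokines (edgeR adjusted p = 0.00349). Mgll, which hydrolyses monoacylglycerols, went with cytokines from 107 and 69.6 to 16.7 and 15 CPM in WT and from 6.17 and 14.4 to 1.42 and 6.57 CPM in dKO. Its log2 fold change of -2.96 ± 0.69 without cytokines (edgeR adjusted p = 0.0317) was the lowest of the repressed genes that passed and ended without untreated WT library 1 or 2, treated WT library 1 or 2 or untreated dKO library 1 or 2 (edgeR adjusted p from 0.0502 to 0.153).

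The remaining 57 repressed genes had no shared role, and 15 were higher and 12 lower in untreated dKO. Emb, the immunoglobulin superfamily protein embigin, stood at 77.8 and 94.8 CPM in WT and 679 and 405 CPM in dKO without cytokines and at 15.1 and 15.4 CPM in WT and 243 and 197 CPM in dKO with them. It was higher in dKO by 2.81 ± 0.31 without (edgeR adjusted p = 0.00405) and 3.93 ± 0.32 with cytokines (edgeR adjusted p = 0.0015). Gpm6a, a membrane glycoprotein of the proteolipid family, had 587 and 619 CPM in WT cells before cytokines and 153 and 192 CPM after, and 129.8 and 163 CPM in dKO cells before and 41 and 64.9 CPM after. It went the other way, with log2 fold changes of -1.90 ± 0.21 (edgeR adjusted p = 0.00403) and -1.63 ± 0.21 (edgeR adjusted p = 0.00388). Peg10, an imprinted gene derived from a retrotransposon, was at 254 and 262 CPM in untreated WT, 18.1 and 21.9 CPM after cytokines, 48.8 and 91.9 CPM in untreated dKO and 10.3 and 18.7 CPM after cytokines. The genotypes were apart before cytokines (log2 fold change -1.74 ± 0.34, edgeR adjusted p = 0.0188) and did not pass after them (edgeR adjusted p = 0.392), and the former call ended without untreated WT library 1 or 2 or untreated dKO library 1 (edgeR adjusted p from 0.0681 to 0.0884). Clca3a1 and Nrbp2, chosen after their values were seen, had small errors. Nrbp2, a pseudokinase gene, went with cytokines from 39.9 and 46 to 11.2 and 12.2 CPM in WT and from 153 and 168 to 31.6 and 43.4 CPM in dKO, a log2 fold change of 2.05 ± 0.15 without cytokines (edgeR adjusted p = 0.00131). Clca3a1, which has near-identical neighbours that may share its counts, differed by 1.35 ± 0.10 without (edgeR adjusted p = 0.00131) and 1.34 ± 0.10 with cytokines (edgeR adjusted p = 0.00119).

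The size of the response was then set side by side in the genotypes, with no test, since the same responses chose the genes. In 95 genes the ratio was lower in both WT pairs than in both dKO pairs, in 21 it was lower in both dKO pairs, and in 65 the pairs overlapped. Among all 9836 genes at the level minimum, 38.7% had the lower ratio in WT and 20.7% in dKO. These ratios and the folds below rest on column totals. With cytokines the TMM factor went from 1.14 to 0.952 and from 1.10 to 0.982 in WT pairs 1 and 2. In dKO it went from 0.973 to 0.893 and from 1.04 to 0.942. TMM scaling would thus raise the ratios of every pair, most in WT pair 1, and the split was not counted with it. Cyp26b1 was 30.3-fold lower in WT and 2.3-fold lower in dKO. Podn was 8.48-fold lower in WT and 2.31-fold in dKO, and Klf15 10.2-fold and 3.74-fold. The 21 genes with the larger fold in dKO were Krt18, Ildr2, Lmcd1, Filip1l, Kirrel3, Cavin2, Gm43672, Serpina3h, Nrbp2, Hacd4, Edn1, Nav2, Ak5, Tsc22d1, Ccn1, Pdk4, Plekha7, Ctps, Lepr, Il6ra and Ociad2. Tsc22d1 was 2.02-fold lower in WT and 6.31-fold in dKO, Edn1 2.55-fold and 5.66-fold, and Ildr2, chosen after its values were seen, 3.0-fold and 8.39-fold. The geometric means were close in other genes, such as Bmp4 and Vwf, the latter 2.55-fold lower in WT and 2.62-fold in dKO.

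**Figure D4:**
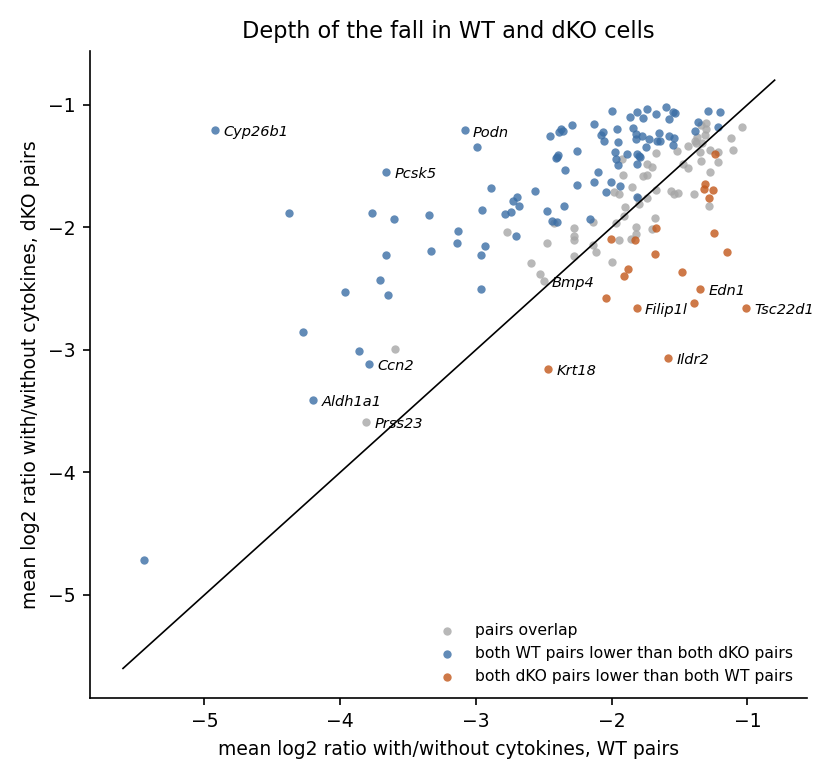
Mean log2 ratio of treated to untreated level over the 2 WT pairs (x axis) and the 2 dKO pairs (y axis) for the 181 repressed genes, with the line of equality. Blue points, 95 genes, had the lower ratio in both WT pairs, orange points, 21 genes, had it in both dKO pairs, and in the 65 grey points the pairs overlap. Levels are scaled by column totals.

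Features that the rule did not use were described last. Of the 181 genes, 175 were protein coding in the GENCODE M21 annotation of GRCm38, 6 lay on chromosome X, and the median exon length was 4585 bases against 4711 for the 9836 genes. There were 7 pairs of repressed genes within 100000 bases of each other, of which Rnase4 with Ang and Selenop with Ccdc152 overlap. At least 10% of exon bases were shared with another gene in 15 of them (Aldh6a1, Ang, Cables1, Ccdc152, Fam84b, Gpr39, Hacd4, Hoxaas2, P3h2, Rnase4, Selenop, Sned1, Tha1, Timp3 and Tspan4), which makes their counts uncertain. Near-identical copies may also share counts of Serpina3n, Serpina3h, C4b, Mettl7a1, Akr1c14, Clca3a1, Gm7233 and Gm8104.

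A RefSeq promoter window, from 250 bases before to 50 after a start site (GRCm38.p6), was found for 127 of the 181 genes, 171 windows in all. A ratio of observed to expected CpG of at least 0.6 was seen in 46.8% of these windows, in 73.9% of those of the 9836 genes and in 43.5% of those of the 97 doubled genes. The ETS letters CCGGAAG stood on either strand in 4.68% of windows of repressed genes, in 19.1% of the 9836 genes, in 4.71% of doubled genes and in 8.86% of all windows. Within windows of a CpG ratio of at least 0.6 the shares were 3.75%, 23% and 8.11%, and below it 5.49%, 7.94% and 2.08%. Other letters around the GGAA core were not counted, so these are not shares of all possible ERG or FLI1 sites. The TATA box letters TATAAA stood in 12.3%, 6.60% and 15.3% of windows of repressed genes, the 9836 genes and doubled genes, and in 13.6% of all windows. Below a CpG ratio of 0.6 the shares of repressed, the 9836 and doubled genes were 11.0%, 11.1% and 18.75%. At 0.6 or more they were 13.75%, 5.02% and 10.8%. An NF-kB motif stood in 0.585%, 1.52% and 11.8%, which is 1 of 171, 152 of 10024 and 10 of 85 windows. The AP-1 letters TGANTCA stood in 8.19%, 4.79% and 14.1% in the same order, and in 7.81% of all windows. Their shares were 14.3%, 9.35% and 16.7% below a CpG ratio of 0.6, and 1.25%, 3.17% and 10.8% at or above it. These shares are descriptions without a test, and a window without a match says only that the letters are not there. Motifs can overlap each other, and several windows can belong to 1 gene.

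Bmp4 is shown as one of the 7 repressed genes whose window held the ETS letters. It lies at chr14:46390670-46390919 on the minus strand of GRCm38.p6, the sequence is from RefSeq, and capitals mark the match, which begins 96 bases before the start site and reads CTTCCGG on the strand of the gene.
Bmp4: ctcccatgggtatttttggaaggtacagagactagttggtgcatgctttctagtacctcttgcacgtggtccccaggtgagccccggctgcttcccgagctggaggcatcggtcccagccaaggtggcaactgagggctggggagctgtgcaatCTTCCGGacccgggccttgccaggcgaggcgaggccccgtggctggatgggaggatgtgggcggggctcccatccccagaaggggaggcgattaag

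**Figure D5:**
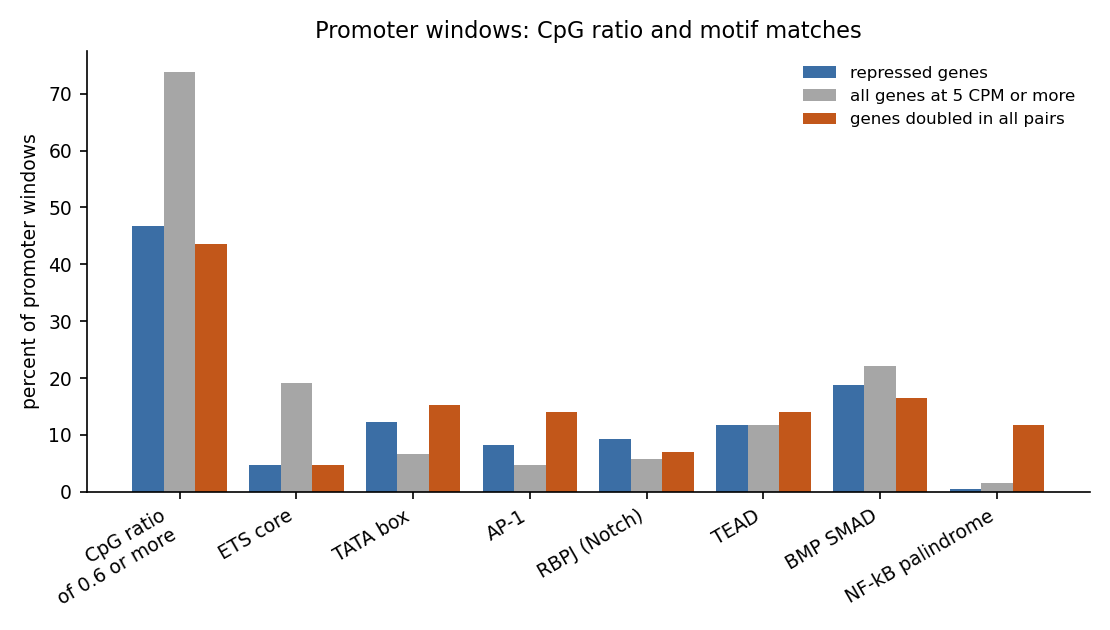
Percent of promoter windows with a CpG ratio of at least 0.6 and with each motif, for the repressed genes, all genes with at least 5 CPM in each untreated library and the genes at least doubled in all pairs. The repressed genes lie below all genes for the CpG ratio (46.8% against 73.9%) and the ETS letters (4.68% against 19.1%), and far below the doubled genes for the NF-kB motif (0.585% against 11.8%).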

How the data were processed

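RNA was sequenced from 8 libraries of cultured mouse liver endothelial cells, 2 in each of 4 groups taken from the genotype and treatment in the labels. The authors deposited raw counts of reads for each Ensembl gene, which are whole numbers. FastQC 0.11.5, STAR 2.7.6a and the build GRCm38 are named per the submitters' processing notes. The read counter, its annotation and its strand setting were not given in the sources used here. The libraries were made with either a stranded kit or one that does not mark strand, per the labels' protocols, so genes that overlap on opposite strands may share counts. The labels place the 4-OHT treatment in mice and the design text in the medium, and this was not settled.

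Levels are CPM of a library's column total. Differences were fitted with edgeR 4.0.16 (R 4.3.3) by its robust quasi-likelihood method, scaled by TMM, over 4 group coefficients. A filter for low counts in the groups kept 15698 genes, all 181 repressed genes among them. There were 4 residual degrees of freedom, with a common biological variation of 24.3%. This fit took the 8 libraries as independent, although same-numbered libraries of a genotype deviated together (correlation 0.489 in WT and 0.752 in dKO). The adjusted p-values do not allow for that. Each p is two-sided, adjusted by the Benjamini-Hochberg method across all genes tested, and the threshold was 0.05. The SE after ± was derived from the test, as the absolute log2 fold change divided by the square root of its F statistic. The fit was tested on simulated data.

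The repressed genes, the gene lists, the roles and the motifs were chosen with earlier results of these data known. Named genes were the 12 lowest mean ratios among members with at least 20 CPM in each untreated library, up to 3 members of each list by level, the 6 highest and 6 lowest genotype differences in each condition, the 3 genes on either side of the ratio limit, Erg and Fli1. Members with provisional symbols were kept out of this choice, and not every gene so chosen is printed; 1 of them is not reported here. Other genes named with values (Aldh1a1, Amotl2, Clca3a1, Cyp26b1, Edn1, Filip1l, Gm13091, Hlf, Id1, Ildr2, Lats2, Nrbp2, Per2, Rnase4, Wnk4 and those in the closing section) were chosen after their values were seen. Alternatives were another scaling, no filter, DESeq2 1.42.0, fewer libraries, a replicate block and other limits of the rule. Coordinates are from GENCODE M21 and RefSeq windows, counted from 1.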

Additional observations from a re-analysis of the deposited data

Results flagged for a closer look

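In 7 repressed genes the order of the genotypes turned with cytokines, with no overlap between the 2 WT and the 2 dKO libraries in either condition; the difference between conditions was not tested. Such a turn is near the share of all genes: it was seen in 3.23% of the 9836 genes at the level minimum with dKO going from below to above WT (5 of the repressed genes) and in 1.06% in the other direction (2 of them). The genotype difference passed in both conditions in 2 of the 7, Pcsk5 and Tsc22d1. Values are log2 fold changes of dKO over WT, without and then with cytokines. WT cells had the higher level before cytokines and the lower level after in 5 of them. These were 6330403K07Rik (-1.26 and 1.34), Cyp26b1 (-1.77 and 2.32), Pcsk5 (-1.0 and 1.08), Ptgs1 (-0.35 and 0.78) and Cpox, an enzyme of haem synthesis (-0.36 and 0.72). The order was the other way round in Serpina3h (0.72 and -0.80) and Tsc22d1 (1.0 and -0.75). Cpox was at 130.5 and 118 CPM in untreated WT, 99.3 and 73.9 CPM in untreated dKO, 22.4 and 25.2 CPM in treated WT and 41.8 and 31.9 CPM in treated dKO.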

How the results depend on the processing

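The number of repressed genes was 94 at a ratio limit of 0.4 and 355 at 0.6, 145 at 10 CPM or more, 127 with TMM-scaled library sizes (126 shared), 129 with DESeq2 size factors (128 shared), and 197 to 259 with 1 pair left out. Without cytokines, leaving out 1 library gave 11 to 44 genes higher and 8 to 35 lower in dKO; with cytokines it gave 24 to 58 higher and 9 to 28 lower. Calls over all genes tested also changed between these fits. A fit of only the 4 libraries compared gave 15 lower with cytokines. Over all genes it gave 1610 lower of 14772 tested, against 2417 of 15698 in the main fit. Without both dKO replicate 2 libraries, added after seeing the data, 46 were lower without cytokines and 47 with them. DESeq2 gave 50 higher and 40 lower without cytokines, and 66 and 32 with them. Over all 15698 genes it gave 2415 higher and 2071 lower without cytokines, and 3117 and 2804 with them.

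Same-numbered libraries deviated together within a genotype (correlation across 9836 genes 0.489 in WT and 0.752 in dKO) but little across genotypes (0.0841 to 0.187), where the numbers are not known to pair libraries. The replicate block was a term for library number shared by all 4 groups, so it also tied same-numbered WT and dKO libraries. A block within each genotype was not fitted. With the shared block, 45 were higher and 44 lower without cytokines, and 64 and 35 with them. Over all 15698 genes the block gave 2557 higher and 2088 lower without cytokines, and 3306 and 2969 with them.

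Of 132 named gene results 125 kept their sign in every setting, and of 78 calls 35 stayed under the threshold in every setting. Without cytokines, leaving out 1 library gave log2 fold changes from -0.204 to 0.882 for Nkd1 (-0.106 without untreated dKO library 1), -0.0124 to 0.524 for Syne3, -0.126 to 0.0378 for Filip1l (0.0342 without untreated dKO library 2) and -0.0647 to 0.0944 for Tns2 (-0.0617 without untreated dKO library 1). Filip1l was at 0.0197 without both dKO replicate 2 libraries, and Tns2 at -0.14 with column totals and -0.0054 with no filter. With cytokines the ranges were -1.09 to 2.19 for Prss23, -1.76 to 0.161 for Slit2 and -0.468 to 0.0709 for Tns2. Prss23 was lower in dKO without treated dKO library 2 (-1.09, edgeR adjusted p = 0.0449) and without both dKO replicate 2 libraries (-1.09, edgeR adjusted p = 0.0348). The cause of these changes was not tested. Where 1 library of a group was left, it was assumed to vary like the other groups. With 2 libraries a group, a difference that did not pass is not shown to be absent.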
